A study of Mus musculus with 66 samples.

Results

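The immediate early genes Fos, Fosb, Fosl1, Jun, Junb, Egr1, Ier2, Maff, Arc and Atf3 were followed through a time course of Myc activation in mouse fibroblasts. They were chosen by gene symbol, with earlier results of these data known, and 8 of the 10 were among the 11513 genes of each deposited table. Jun and Ier2 were not among the genes of the tables and were not analysed here. The cells were 3T9-MycER fibroblasts, derived from E13.5 mouse embryos with floxed c-myc alleles (genotype c-mycflox/flox) and infected in vitro with a retroviral MycER construct. In MycER, the oestrogen receptor's hormone-binding domain is fused to Myc, so that the fusion protein becomes active when 4-hydroxytamoxifen (OHT) is added. Cells were harvested at 0 min and at 10 further times in 400 nM OHT, the first being 10, 20 and 30 min, then 1, 1.5, 2 and 4 h, and finally 8, 12 and 16 h. Every group, 0 min included, carried MycER and the floxed alleles. At each time 3 libraries were made from RNA that had taken up 4-thiouridine (4sU), a base analogue given at 300 µM during 10 min, and 3 from total RNA. The first kind, called labelled RNA here, is newly made.

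Immediate early genes are genes whose transcription can start within minutes of a growth or stress signal, without new protein synthesis, and whose mRNAs are mostly short-lived. Fos, Fosb and Fosl1 (the protein is also called Fra-1) encode Fos family proteins that pair with Jun family proteins, such as the product of Junb, to form the transcription factor AP-1. Egr1 encodes a zinc finger factor, Maff a small MAF protein that lacks an activation domain of its own, and Atf3 a stress-inducible factor of the ATF/CREB family. Arc is not a transcription factor. It encodes a cytoskeleton-associated protein studied mainly at neuronal synapses.

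RefSeq promoters of the GRCm38.p6 build, 250 bases before to 50 bases after an annotated start, were at hand for 5 of the 8 genes, namely Fos, Fosb, Junb, Maff and Atf3. They are shown because Fosb, Junb and Maff fell late in newly made RNA while Atf3 rose and Fos passed no test. Capitals mark every match, on either strand, to 6 motifs: the E-box CACGTG, which Myc with its partner Max can bind, the short cyclic AMP response element (CRE) site TGACG, the full CRE TGACGTCA, the AP-1 site TGANTCA, the TATA box TATAAA and the CArG box, the binding site of SRF. The Fos promoter is at chr12:85473640-85473939 (plus strand), that of Fosb at chr7:19309996-19310295 (minus strand), that of Junb at chr8:84978699-84978998 (minus strand) and that of Atf3 at chr1:191183284-191183583 (minus strand). Maff has 3 annotated starts, and the promoter of the second, at chr15:79347270-79347569 (plus strand), is shown because it is the only promoter searched here that holds an E-box. Each sequence runs from 5′ to 3′.
Fos: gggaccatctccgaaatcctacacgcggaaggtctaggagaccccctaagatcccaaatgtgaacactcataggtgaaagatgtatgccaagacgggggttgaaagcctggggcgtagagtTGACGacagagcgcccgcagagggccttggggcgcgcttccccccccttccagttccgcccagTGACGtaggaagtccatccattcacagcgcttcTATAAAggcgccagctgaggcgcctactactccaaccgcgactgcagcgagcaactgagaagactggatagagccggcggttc
Fosb: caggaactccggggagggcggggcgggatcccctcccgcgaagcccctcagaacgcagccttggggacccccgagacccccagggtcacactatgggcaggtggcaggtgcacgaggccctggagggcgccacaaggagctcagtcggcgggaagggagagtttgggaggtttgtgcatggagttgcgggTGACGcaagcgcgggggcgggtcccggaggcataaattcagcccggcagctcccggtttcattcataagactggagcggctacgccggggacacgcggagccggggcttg
Junb: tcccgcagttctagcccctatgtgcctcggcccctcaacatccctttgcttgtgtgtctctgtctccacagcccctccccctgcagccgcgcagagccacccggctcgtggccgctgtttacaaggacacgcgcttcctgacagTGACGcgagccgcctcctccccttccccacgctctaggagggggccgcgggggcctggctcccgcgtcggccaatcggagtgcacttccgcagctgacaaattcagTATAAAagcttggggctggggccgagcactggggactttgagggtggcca
Maff: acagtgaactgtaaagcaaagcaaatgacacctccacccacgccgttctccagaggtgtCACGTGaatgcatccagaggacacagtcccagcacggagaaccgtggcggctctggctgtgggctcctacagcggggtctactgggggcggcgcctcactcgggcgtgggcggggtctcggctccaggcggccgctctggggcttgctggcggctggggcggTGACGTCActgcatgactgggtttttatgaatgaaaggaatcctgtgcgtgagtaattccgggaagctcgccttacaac
Atf3: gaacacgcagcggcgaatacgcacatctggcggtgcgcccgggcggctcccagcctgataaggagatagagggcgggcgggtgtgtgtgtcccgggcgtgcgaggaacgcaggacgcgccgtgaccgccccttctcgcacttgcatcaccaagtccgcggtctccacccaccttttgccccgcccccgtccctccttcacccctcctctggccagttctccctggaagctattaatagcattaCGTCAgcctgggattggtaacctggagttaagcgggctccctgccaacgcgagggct

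The short CRE site was found in all 5 genes, at positions -129 and -66 of Fos, -60 of Fosb, -106 of Junb, -29 and -26 of Maff and -7 of Atf3, counted from the annotated start to the leftmost base. The short site stood in 20.8% of the 32851 promoters of this length. At the second Maff start both matches are parts of a full CRE at -29, a motif in 1.79% of promoters, and the E-box at -191 is a motif in 7.15%. The first Maff start had no match to any of the 6 motifs, and the third had a short CRE site at -122. TATAAA stood at -33 of Fos and at the annotated start of Junb, and in 13.6% of all promoters. No AP-1 site (7.81% of promoters) or CArG box (1.63%) was found in these windows. These are matches of letters and say nothing of binding.

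In the GENCODE M1 annotation of the mm9 mouse genome the genes are spread over 7 chromosomes. Fos (Entrez 14281) lies at chr12:86814840-86818223 on the plus strand, Fosb (14282) at chr7:19888070-19895394 on the minus strand and Fosl1 (14283) at chr19:5447703-5455945 on the plus strand. Junb (16477) lies at chr8:87500811-87502617 on the minus strand and is annotated with 1 exon and 0 introns. Egr1 (13653) lies at chr18:35020861-35024638 on the plus strand, Maff (17133) at chr15:79177971-79189502 on the plus strand, Arc (11838) at chr15:74499513-74503000 on the minus strand and Atf3 (11910) at chr1:192994175-193007219 on the minus strand. The tables nevertheless hold intron values for Junb, and the annotation behind them is not given in the sources used here, so the Junb intron values are shown only beside its exon values.

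Values below are the deposited values after scaling between libraries, and they are relative, since no spike-in is described. Read depth cannot be taken from the files. The deposited values had been rescaled before deposit. Their sums per library, in units of 1e6, ran from 11.62 to 14.12 in exons and 31.28 to 39.26 in introns of labelled RNA and from 46.5 to 52.72 and 10.65 to 13.01 in those of total RNA. The mean correlation of a library with the other 2 of its group, over all genes tested, was at least 0.9868 in every table. Changes were tested with limma, with Benjamini-Hochberg adjustment over all 11474 to 11506 genes tested in a table, and called at an adjusted p under 0.05. No separate cultures are named for the replicates, so the p-values rest on a spread between libraries that may be technical. There was no time course without OHT, so OHT and time in culture cannot be told apart, and all changes against 0 min share the same 3 control libraries. In bulk RNA, fewer cells that express a gene and less RNA per cell cannot be told apart.

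Per length of transcript, Junb was the most abundant of the 8 genes and Fosb the least, in both kinds of RNA. In labelled exons at 0 min the order was Junb (9.53 ± 0.445 RPKM, SD, n = 3), Egr1 (5.97 ± 1.6), Arc (4.36 ± 0.4), Fosl1 (3.37 ± 0.815), Maff (2.63 ± 0.157), Atf3 (0.563 ± 0.152), Fos (0.471 ± 0.272) and Fosb (0.204 ± 0.0799). The same order stood at 20 min and at 16 h. The SD ranges of Egr1 and Arc touched, as did those of Arc and Fosl1, of Fosl1 and Maff, of Atf3 and Fos, and of Fos and Fosb. In total exons at 0 min Junb stood at 40 ± 8.63 RPKM, Arc at 12.1 ± 0.306, Maff at 11.1 ± 3.02, Fosl1 at 5.05 ± 1.58, Egr1 at 3.62 ± 2.09, Atf3 at 2.14 ± 0.0451, Fos at 0.608 ± 0.252 and Fosb at 0.116 ± 0.0214. At 0 min Egr1 was thus second in newly made RNA but below Arc, Maff and Fosl1 in the means of total RNA. In total RNA the SD ranges of Arc and Maff, of Fosl1 and Egr1, and of Egr1 and Atf3 overlapped. At 20 min the mean of Egr1 (6.03 ± 5.44 RPKM) stood above that of Fosl1 (4.48 ± 0.915) in total RNA, with overlapping SD ranges. Fos, the founding member of the family, was close to the bottom in both kinds of RNA.

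The early change was looked at after 20 min of OHT, first in the exons of labelled RNA. All 8 genes had a positive change, but none passed the test. The median change was 0.44 on the log2 scale, against 0.00 for all genes tested, where 3.32% of genes were called higher and 0.722% lower. By limma, 4 of the 8 (Fosl1, Junb, Arc and Atf3) had an unadjusted p under 0.05, as did 15.5% of all genes. At 20 min replicate 3 was the highest library in every gene but Maff. Replicate 1 was the lowest in Fos, Fosb, Junb, Egr1 and Arc. The part of such shared differences between libraries in the early change was not tested.

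Junb had values of 958, 1373 and 1500 in the 20 min libraries of labelled RNA (replicates 1 to 3), against 914, 898 and 901 at 0 min. Every 20 min library was above every 0 min library, although the first by little, and the change was 0.47 ± 0.17 (log2 ± SE, adjusted p = 0.123). Without replicate 1 at 20 min it was 0.67 and passed the test (adjusted p = 0.0294). Fosl1 had 373, 359.9 and 416 at 20 min, against 318, 202 and 275 at 0 min, again with no overlap, a change of 0.55 ± 0.20 (adjusted p = 0.12). With a fit to the 20 min and 0 min libraries alone, Fosl1 and Junb both passed the test (adjusted p = 0.0386 and 0.0378). Arc had 728, 732 and 830.4 at 20 min, against 621, 585 and 643 at 0 min, which did not overlap either, a change of 0.31 ± 0.13 (adjusted p = 0.234).

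Egr1 stood at 526, 1755 and 2159 in labelled exons at 20 min, against 649, 843 and 1047 at 0 min. Replicates 2 and 3 were above every 0 min library while replicate 1 was below them all, and the change was 0.60 ± 0.40 (adjusted p = 0.547). At 10 min the picture was the same, with 593, 1836 and 1612. At 30 min the Egr1 values of 1147, 1561 and 2043 were all above those of 0 min, a change of 0.89 ± 0.40 (adjusted p = 0.163) that passed the test only in a fit to the libraries of those times (adjusted p = 6.75e-04).

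The other 4 genes overlapped between 20 min and 0 min in labelled exons. Maff had 262, 284 and 237 at 20 min, against 216, 245 and 200.3 at 0 min (0.24 ± 0.18). Atf3 had 81.3, 69 and 85 at 20 min, against 73.7, 51.5 and 43.4 at 0 min (0.50 ± 0.25). Both low genes of the Fos family were spread widely within a group: Fos had 31.7, 61 and 71.8 at 20 min, against 17.4, 72.7 and 48 at 0 min (0.38 ± 0.53), and Fosb 30.8, 50 and 62.7, against 32, 53.5 and 23.1 (0.42 ± 0.33). The adjusted p of these 4 lay between 0.321 and 0.825.

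**Figure D1:**
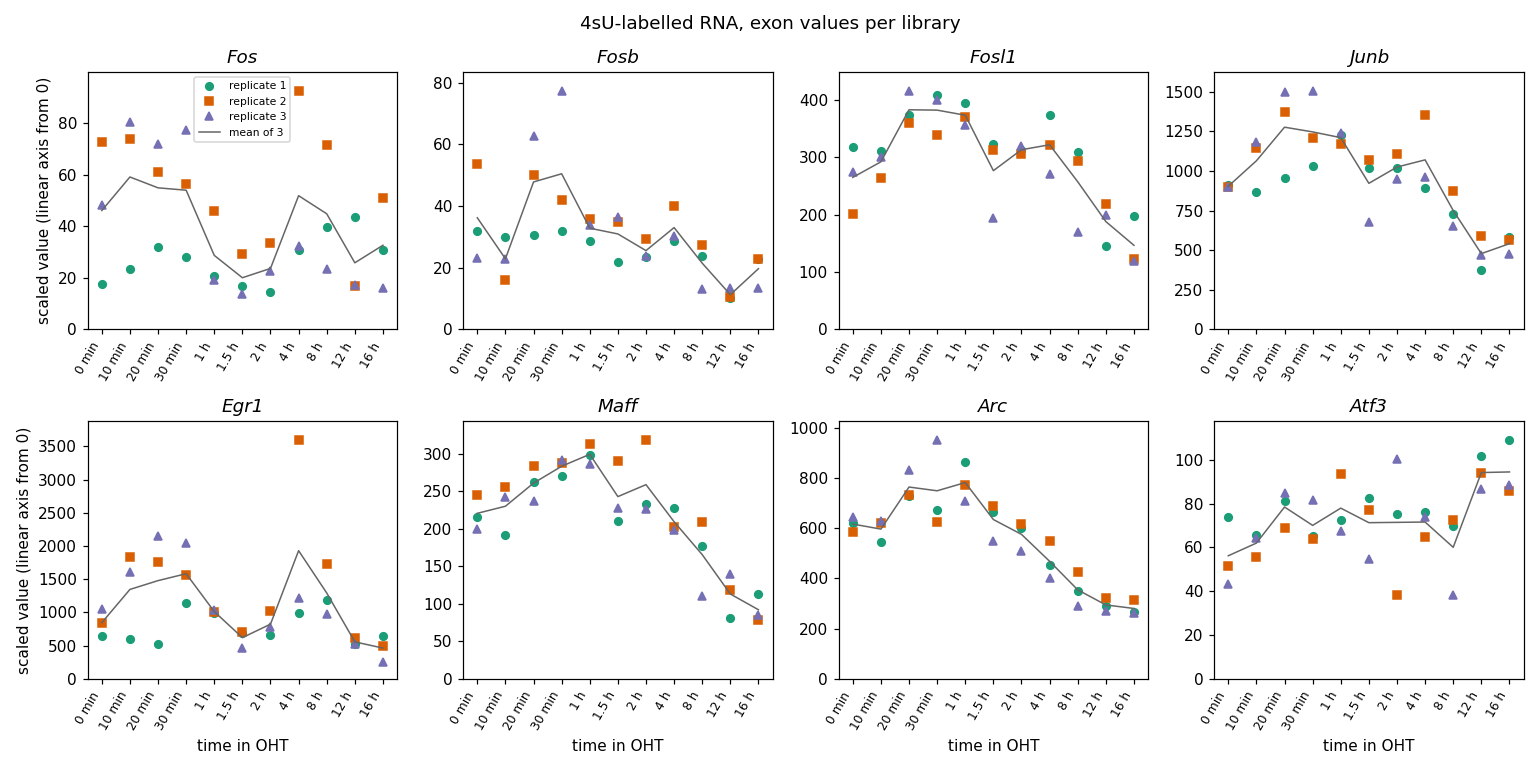
Exon values of the 8 genes in labelled RNA (y axis, scaled value, linear from 0) at the 11 times in OHT (x axis), with 1 symbol per library and a line through the mean of 3. Junb, Fosl1 and Arc stand above their 0 min libraries at 20 min, and all but Fos and Atf3 are lowest at 12 h or 16 h.

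The introns of labelled RNA, which come from transcripts not yet spliced, gave 3 calls at 20 min, all higher: Fosl1, Maff and Atf3. Of all genes tested there, 16.7% were called higher and 13.3% lower, so calls were common in introns at this time. The median of the 8 genes was 0.57, against -0.01 for all genes tested. Fosl1 introns had 2995, 2701 and 3355 at 20 min, against 2233, 1800 and 2028 at 0 min, a rise of 0.58 ± 0.17 (adjusted p = 0.0102). Maff introns had 957, 833 and 1113 at 20 min, against 554.5, 544 and 612 at 0 min, a rise of 0.75 ± 0.23 (adjusted p = 0.0116). In both genes every 20 min library was above every 0 min library.

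Atf3 introns had 293, 236 and 221 at 20 min, against 215, 187 and 177 at 0 min, a rise of 0.37 ± 0.13 (adjusted p = 0.0349) in groups that also did not overlap. That call ended without replicate 1 at 20 min (adjusted p = 0.222), without replicate 2 or 3 at 0 min (0.0903 and 0.147), with scaling by library sums (0.0815), with RPKM plus 0.1 (0.0703) and in the fit to the libraries of 20 min and 0 min alone (0.0718). The Fosl1 call depended on replicate 3 at 20 min (0.0616 without it) and on replicate 2 at 0 min (0.057 without it), and the Maff call ended without replicate 3 at 20 min (0.0677).

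Of the remaining genes at 20 min, Egr1 introns had 45.6, 124 and 154 in labelled RNA, against 56.4, 62.4 and 89.95 at 0 min, with replicate 1 low as in exons (0.48 ± 0.46). Arc introns were few, with 14.9, 25.6 and 23.5 at 20 min against 10.1, 9.90 and 15.5 at 0 min (0.79 ± 0.37). The Junb values counted as intronic changed by 0.31 ± 0.30. Neither Fos (0.57 ± 0.90) nor Fosb (0.66 ± 0.36) passed the test at 20 min. Fos introns never exceeded 19.6 in a library of labelled RNA.

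At 30 min Fosb joined the genes called higher in labelled introns, which then were 4 (22.2% of all genes were called higher and 20% lower). Fosb introns had 30.4, 35.6 and 41.3 at 30 min, against 18.1, 11.9 and 14.5 at 0 min, with no overlap, a rise of 1.22 ± 0.36 (adjusted p = 0.00639). It was no longer called with replicate number 2 or 3 left out at all times (0.0574 and 0.0543). The rises of Fosl1 and Maff were then 0.65 ± 0.17 and 0.78 ± 0.23 (adjusted p = 0.0028 and 0.00596), and both were called under each of the 18 other settings tried. Atf3 stood at 0.35 ± 0.13 (adjusted p = 0.0323). It was no longer called without replicate 3 at 30 min (0.208), without either of replicates 2 and 3 at 0 min (0.0817 and 0.133), or with scaling by library sums (0.153). At 1 h Fosl1 (0.44 ± 0.17, adjusted p = 0.0338) and Atf3 (0.38 ± 0.13, adjusted p = 0.0182) were the 2 genes called higher, where 24.8% of all genes were higher and 24.4% lower. Of these, Fosl1 was no longer called without replicate 1 or 2 at 1 h (0.113 and 0.0669) or replicate 2 or 3 at 0 min (0.132 and 0.0676). Atf3 was no longer called without replicate 3 at 1 h (0.0715) or replicate 2 or 3 at 0 min (0.0513 and 0.0858), and with no further scaling both calls were lost (0.0618 for Fosl1 and 0.0533 for Atf3).

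At 4 h Atf3 was the only one of the 8 called in labelled introns, where 24.8% of all genes were higher and 24.9% lower. Its introns had 236, 255 and 261 at 4 h, against 215, 187 and 177 at 0 min, all higher, a rise of 0.38 ± 0.13 (adjusted p = 0.0178). Leaving out replicate 3 at 4 h (0.0576) or replicates 2 or 3 at 0 min (0.0512 and 0.0839) took the call away.

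Labelled exons had 0 called genes among the 8 at 10 min (0% of all genes called in either direction), 30 min (11.7%), 1 h (23.3%), 1.5 h (26.1%) and 2 h (27%), by limma. At an unadjusted p under 0.05 there were 0 of 8 at 10 min, 3 at 30 min (Fosl1, Junb and Egr1), 4 at 1 h (Fosl1, Junb, Maff and Arc), 0 at 1.5 h and 0 at 2 h. Of all genes, 3.25%, 24.1%, 33.8%, 36.7% and 36.8% were under 0.05 at these 5 times. In a fit to the libraries of the 2 times alone, 3 genes were called higher at 30 min (Fosl1, Junb and Egr1) and 4 at 1 h (Fosl1, Junb, Maff and Arc). The share of all genes called was not computed for that fit. Some calls appeared when a library was left out: Fosl1 at 30 min and at 1 h without replicate 1 at 0 min (0.0339 and 0.0254), Junb at 30 min without replicate 1 at 30 min (0.0442), Arc at 1 h without replicate 3 at 1 h (0.048) and Atf3 at 2 h without replicate 2 at 2 h (0.0419). The highest mean fell at 20 min for Fosl1 (383 ± 29.2, SD, n = 3) and Junb (1277 ± 283) and at 1 h for Maff (299 ± 13.2) and Arc (781 ± 79.2).

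**Figure D2:**
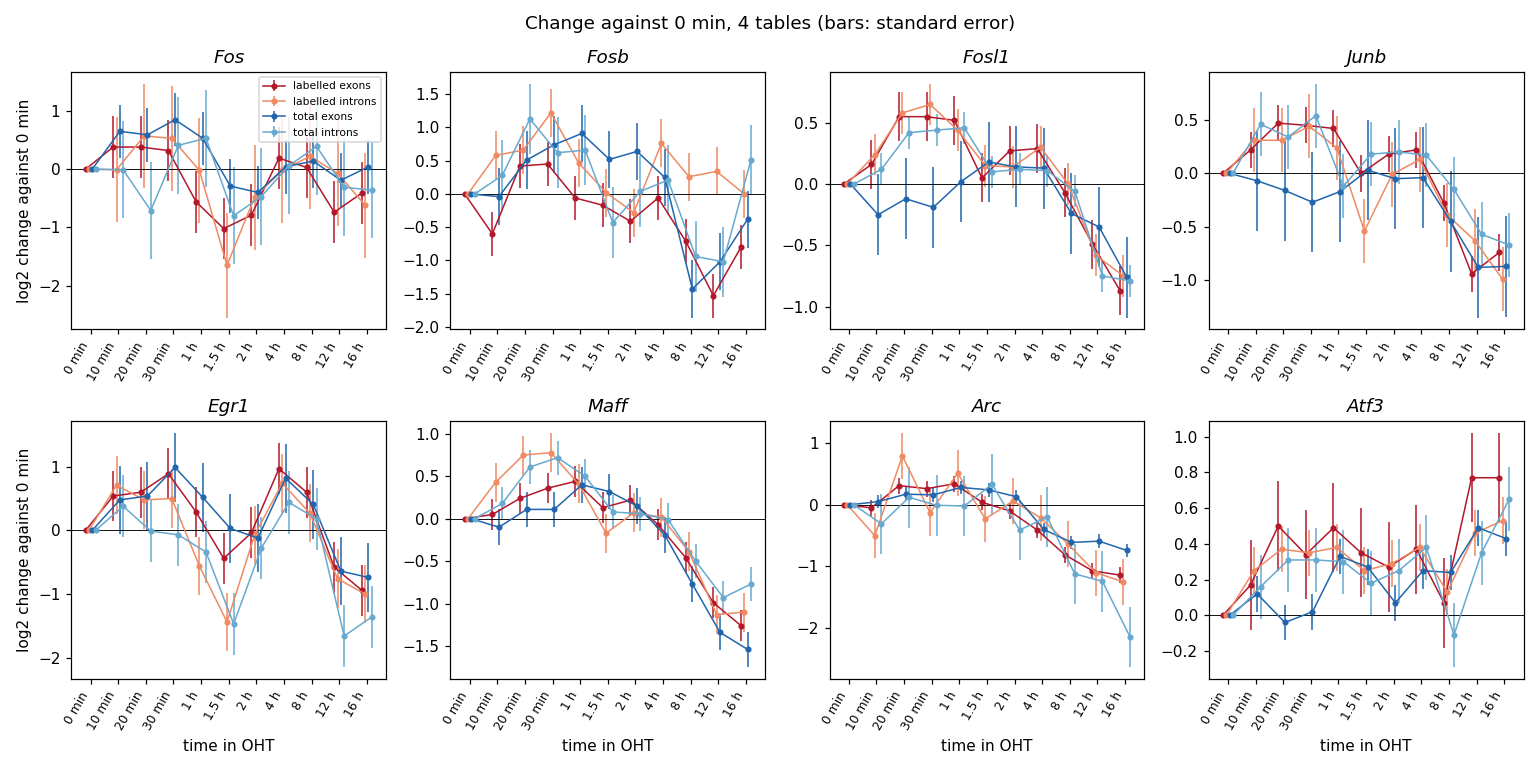
Log2 change against 0 min (y axis, bars are standard errors of the fit) at each time in OHT (x axis) for the 8 genes, with 1 line per table: labelled exons and introns, total exons and introns. Intron changes of Maff and Fosl1 in labelled RNA peak at 30 min, at 0.78 and 0.65, while total exons of Fosl1 and Junb stand at -0.19 and -0.27 at that time.

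Total RNA exons at 20 min gave 0 calls among the 8 genes by limma, and 0 at an unadjusted p under 0.05. Hardly any gene of this table was called at that time (0.0435% higher and 0% lower). Arc was the only one of the 8 whose groups did not overlap, with 2459, 2411 and 2717 at 20 min, against 2164, 2371 and 2222 at 0 min (0.17 ± 0.11).

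The libraries of total RNA differed widely in 2 of these genes at 20 and 30 min. Junb exons had 6109, 4589 and 4238 at 0 min, 2670, 3586 and 8904 at 20 min and 1438, 4338 and 10920 at 30 min (replicates 1 to 3). Replicate 3 was above and replicates 1 and 2 were below all 0 min libraries at 20 min. The change of -0.16 ± 0.47 averages over libraries on both sides of the 0 min values. Egr1 had 404, 507 and 1115 at 0 min, 471.5, 625 and 2393 at 20 min and 698, 706.5 and 3672 at 30 min, with replicate 3 high at all 3 times. Its SD exceeded its mean at 30 min (1692 ± 1714, n = 3), a coefficient of variation of 101%. Fos was likewise highest in replicate 3 at 20 min (64.4, 82.8 and 258, against 50.3, 70 and 112 at 0 min).

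Maff and Arc ranged less in the same libraries, with Maff at 1202, 1492 and 1164 and Arc at 2144, 2403 and 3088 at 30 min. Over all genes tested in total exons, the 30 min replicate 1 had the lowest mean correlation with its group, at 0.9930, against a highest of 0.9965. The part of library quality in the spread of Junb and Egr1 was not tested.

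**Figure D3:**
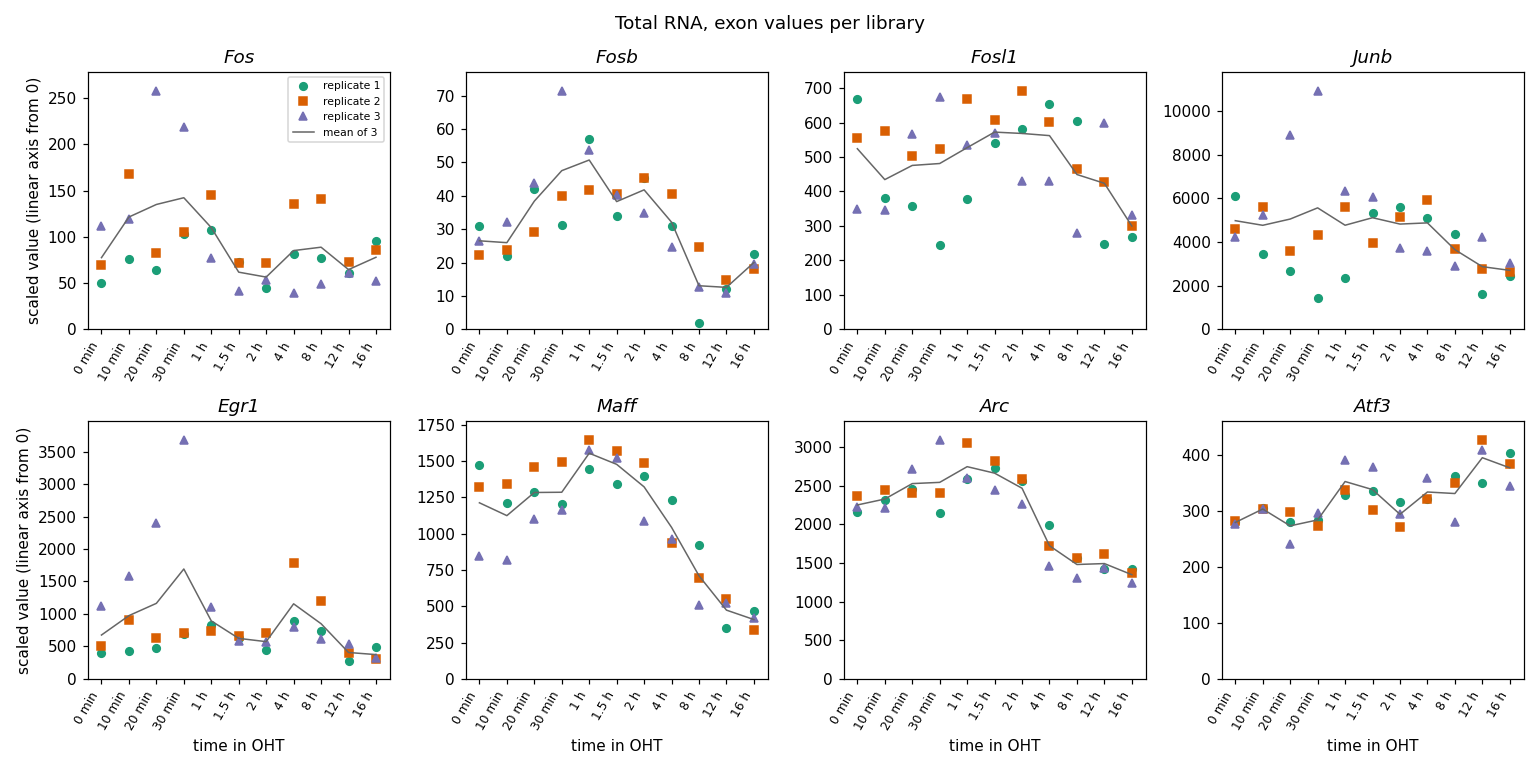
Exon values of the 8 genes in total RNA (y axis, scaled value, linear from 0) at the 11 times in OHT (x axis), with 1 symbol per library and a line through the mean of 3. Junb spans 1438 to 10920 at 30 min and Egr1 698 to 3672, and Arc spans 2144 to 3088.

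Introns of total RNA at 20 min had 2 calls, Fosl1 (0.42 ± 0.13, adjusted p = 0.0376) and Maff (0.61 ± 0.20, adjusted p = 0.0478), where 7.75% of all genes were called higher and 3.82% lower. Maff had 273, 290.3 and 372 at 20 min, against 185, 232 and 192 at 0 min, and Fosl1 1665, 1620 and 1827, against 1315, 1252 and 1258. Neither gene overlapped between the times. Both calls ended when any of the 6 libraries was left out, with adjusted p from 0.0628 to 0.137 for Fosl1 and from 0.051 to 0.216 for Maff, the highest in each without replicate 3 at 20 min. At 30 min Fosl1 (0.44 ± 0.13, adjusted p = 0.0128) and Maff (0.72 ± 0.20, adjusted p = 0.00797) were again the 2 calls (15.1% of all genes higher, 11.9% lower), and both ended without replicate 3 at 30 min (0.055 and 0.0757). At 1 h the same 2 genes were called (20.3% of all genes higher, 19.9% lower), Fosl1 by 0.46 ± 0.13 (adjusted p = 0.00622) and Maff by 0.50 ± 0.20 (adjusted p = 0.0482). The Fosl1 call held without any single library of either time, and the Maff call was lost without replicate 1 or 2 at 1 h (0.0868 and 0.2) or replicate 1 or 3 at 0 min (0.14 and 0.121). In total exons at 1 h Atf3 alone was called, with a rise of 0.33 ± 0.10 (adjusted p = 0.0464), where 5.23% of all genes were higher and 3.47% lower. That call was lost when any of the 6 libraries was left out, with adjusted p from 0.0574 to 0.222, the highest without replicate 3 at 1 h.

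Egr1 fell at 1.5 h in introns. Its introns in labelled RNA had 42, 27 and 12.9 at 1.5 h, against 56.4, 62.4 and 89.95 at 0 min. All 1.5 h libraries were below all 0 min libraries, a change of -1.44 ± 0.46 (adjusted p = 0.0109). It was the only call among the 8 at that time, where 22.6% of all genes were called higher and 21.5% lower, and it ended without replicate 3 at 1.5 h (0.105) or replicate 3 at 0 min (0.0593). In total introns Egr1 had 14.2, 19.2 and 13.8 at 1.5 h, against 25.6, 39 and 90.5 at 0 min, a change of -1.47 ± 0.49 (adjusted p = 0.0168, with 20.2% of all genes called higher and 17.3% lower). That call ended without replicate 3 at 1.5 h (0.0531) or at 0 min (0.157). The exons of Egr1 had no call at 1.5 h, with a change of -0.44 in labelled and 0.03 in total RNA.

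At 4 h Egr1 exons in labelled RNA had their highest mean. They stood at 649, 843 and 1047 at 0 min, 692, 703.5 and 468 at 1.5 h and 987, 3591 and 1214 at 4 h. Replicate 2 at 4 h was far above both others, and replicate 1 lay within the 0 min range. The change at 4 h against 0 min was 0.97 ± 0.40 and missed the threshold (adjusted p = 0.0559), although it passed without replicate 1 or 3 at 4 h (0.0175 and 0.0411). Neither labelled introns (0.74 ± 0.46, adjusted p = 0.18), total exons (0.82 ± 0.54, adjusted p = 0.243) nor total introns (0.44 ± 0.49, adjusted p = 0.508) had a call for Egr1 at 4 h, although the labelled intron change passed without replicate 1 at 4 h (0.0197). Its labelled introns had 56.4, 62.4 and 89.95 at 0 min, 42, 27 and 12.9 at 1.5 h and 50.8, 277 and 107 at 4 h, so that all 4 h libraries were above all 1.5 h libraries but overlapped those of 0 min. The difference between 4 h and 1.5 h was noticed in these values and is given as a description. It was also fitted, and its calls enter only the tally of called changes under other settings, given at the end.

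Fos, at a much lower level, had its lowest mean at 1.5 h in labelled exons, without passing the test. Its labelled exons had 17.4, 72.7 and 48 at 0 min, 16.9, 29.3 and 13.9 at 1.5 h and 30.7, 92.4 and 32.3 at 4 h, and the change at 1.5 h against 0 min was -1.02 ± 0.53 (adjusted p = 0.162). Without replicate 1 at 0 min, that change was -1.58 and passed the test (adjusted p = 0.0355). Its labelled introns at 1.5 h had 0, 13.9 and 0, against 6.04, 6.93 and 7.24 at 0 min, and passed the test without replicate 2 at 1.5 h (adjusted p = 0.00765).

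Arc was called lower at 4 h. In labelled exons it had 452, 550.2 and 402 at 4 h, against 621, 585 and 643 at 0 min, with all 4 h libraries lower, a change of -0.41 ± 0.13 (adjusted p = 0.0145). It was the only one of the 8 called lower at 4 h, and 19.5% of all genes were called higher and 18.7% lower. Leaving out replicate 3 at 4 h (0.109) or replicate 3 at 0 min (0.0552) took the call away. In total exons Arc fell by 0.40 ± 0.11 at 4 h (adjusted p = 0.00437), again alone among the 8 (19.7% of all genes higher, 19.5% lower), and here it was lost without replicate 3 at 4 h (0.0553).

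At 8 h Maff joined Arc in labelled exons (22.3% of all genes higher, 22% lower). Arc changed by -0.81 ± 0.13 (adjusted p = 5.33e-06) and Maff by -0.46 ± 0.18 (adjusted p = 0.0411). Maff had 177, 209 and 110.5 at 8 h, against 216, 245 and 200.3 at 0 min. The Maff groups overlapped, and its call ended without replicate 3 at 8 h (0.424), without replicate 1 or 2 at 0 min (0.0682 and 0.148) and without a trend of the variance (0.0655). In total exons 3 genes were called lower at 8 h, Fosb, Maff and Arc (25% of all genes higher, 26% lower). Fosb rested there on a single library, with 1.98, 24.6 and 12.6 at 8 h, against 30.9, 22.3 and 26.4 at 0 min, and without replicate 1 at 8 h its change was -0.55 (adjusted p = 0.138) in place of -1.43 ± 0.43. Total introns had Maff alone called lower at 8 h (-0.50 ± 0.20, adjusted p = 0.0476), where 22.8% of all genes were lower and 22.4% higher, and that call was lost when any one of 5 of the 6 libraries was left out, with adjusted p from 0.0525 to 0.299, the highest without replicate 3 at 8 h.

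By 12 h 5 of the 8 were called lower in labelled exons (Fosb, Fosl1, Junb, Maff and Arc) and Atf3 was called higher, where 24.8% of all genes were lower and 24.7% higher. Fosb had 10.1, 10.4 and 13.3 at 12 h, against 32, 53.5 and 23.1 at 0 min, a change of -1.53 ± 0.33 (adjusted p = 2.35e-04). Junb had 372, 592.5 and 471 at 12 h, against 914, 898 and 901 at 0 min, a change of -0.94 ± 0.17 (adjusted p = 1.71e-05). Neither gene overlapped between the times. Fosl1, with 146, 219 and 199 at 12 h against 318, 202 and 275 at 0 min, overlapped and fell by 0.49 ± 0.20 (adjusted p = 0.0381). Its call ended without replicate 1 at 12 h (0.223) or replicate 1 or 3 at 0 min (0.196 and 0.105), and the Atf3 call without replicate 3 at 0 min (0.0745). Whether the genes differ in the time of their fall was not tested.

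The other tables at 12 h had the same direction of calls. In labelled introns Fosl1 (-0.58 ± 0.17), Maff (-1.13 ± 0.23) and Arc (-1.10 ± 0.37) were called lower and Atf3 higher (0.46 ± 0.13), where 26.8% of all genes were lower and 27.9% higher, and the Arc call was lost without replicate 3 at 0 min (0.0715). In total exons Fosb (-1.02 ± 0.43), Maff (-1.34 ± 0.21) and Arc (-0.59 ± 0.11) were lower and Atf3 higher (0.49 ± 0.10), where 29.6% of all genes were lower and 27.4% higher. The Fosb call was lost when any one of the 6 libraries was left out, with adjusted p from 0.0503 to 0.118. In total introns Fosl1 (-0.75 ± 0.13), Egr1 (-1.66 ± 0.49), Maff (-0.93 ± 0.20) and Arc (-1.24 ± 0.49) were lower, where 22.2% of all genes were lower and 22.4% higher. The Egr1 call was lost without replicate 1 at 12 h (0.0559) or replicate 3 at 0 min (0.0755), and the Arc call without replicate 2 or 3 at 12 h (0.0611 and 0.187) or replicate 1 or 2 at 0 min (0.231 and 0.0856).

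At 16 h the same 6 genes were called in labelled exons, 5 lower and Atf3 higher. Of all genes tested, 21.7% were lower and 22.5% higher. The median of the 8 was -0.83, against 0.01 for all genes. Maff had 113, 77.9 and 85.7 at 16 h, and Arc had 265, 315 and 261. Both were below all their 0 min libraries, with changes of -1.26 ± 0.18 and -1.14 ± 0.13, and both were called under each of the 18 other settings tried.

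Fosl1 had 198, 122 and 120.0 at 16 h, against 318, 202 and 275 at 0 min, with the highest 16 h library just under the lowest 0 min library, a change of -0.87 ± 0.20 (adjusted p = 4.48e-04). Junb had 583, 565.5 and 475 at 16 h, against 914, 898 and 901 at 0 min, well apart, a change of -0.74 ± 0.17 (adjusted p = 4.53e-04). Both were also called under each of the 18 other settings. Fosb had 22.7, 23 and 13.3 at 16 h, against 32, 53.5 and 23.1 at 0 min, which barely did not overlap, and fell by 0.80 ± 0.33 (adjusted p = 0.0485). The Fosb call ended under 8 of 18 settings, among them without replicate 3 at 16 h (0.239), without replicate 1 or 2 at 0 min (0.0704 and 0.299) and with scaling by library sums (0.0576).

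Egr1 exons had 639, 502.5 and 250.4 at 16 h in labelled RNA, against 649, 843 and 1047 at 0 min, just without overlap, and the change of -0.94 ± 0.40 missed the threshold (adjusted p = 0.0565). It passed without replicate 1 at 16 h (0.0271) and without replicate 1 at 0 min (0.0448). Fos overlapped, with 30.7, 51 and 16.2 at 16 h, against 17.4, 72.7 and 48 at 0 min (-0.41 ± 0.53, adjusted p = 0.56).

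Atf3 went the other way. Its labelled exons had 109, 85.9 and 88.6 at 16 h, against 73.7, 51.5 and 43.4 at 0 min, with every 16 h library higher, a rise of 0.77 ± 0.25 (adjusted p = 0.0111). Leaving out replicate 1 at 16 h (0.0571) or replicate 3 at 0 min (0.0814) took the call away. In labelled introns Atf3 rose by 0.53 ± 0.13 at 16 h (adjusted p = 0.00119) and in total exons by 0.43 ± 0.10 (adjusted p = 9.57e-04). These 2 calls held under each of the other settings. The total exon values of Atf3 were 402, 383 and 344 at 16 h, against 279, 281 and 277 at 0 min, so every 16 h library was again higher.

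Labelled introns at 16 h had 4 genes called lower and Atf3 higher, against 23% of all genes lower and 25.1% higher. Fosl1 had 1803, 962.5 and 997 at 16 h, against 2233, 1800 and 2028 at 0 min, overlapping through replicate 1 at 16 h. It changed by -0.75 ± 0.17 (adjusted p = 5.79e-04), and Maff by -1.10 ± 0.23 (adjusted p = 1.76e-04). Arc introns had 5.97, 5.83 and 2.08 at 16 h, against 10.1, 9.90 and 15.5 at 0 min, a change of -1.25 ± 0.37 (adjusted p = 0.00587), and Junb values counted as intronic fell by 0.99 ± 0.30 (adjusted p = 0.0073). The calls of Arc and Junb ended without replicate 3 at 16 h (0.0729 and 0.056), which was the lowest library for both.

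Total exons at 16 h had 2 genes called lower, Maff and Arc, and Atf3 higher (29% of all genes lower, 26.9% higher). Maff had 471, 336 and 419 at 16 h, against 1475, 1321 and 844 at 0 min, a change of -1.54 ± 0.21 (adjusted p = 3.80e-07). Arc had 1429, 1377 and 1242 at 16 h, against 2164, 2371 and 2222 at 0 min, a change of -0.74 ± 0.11 (adjusted p = 1.21e-06). Neither overlapped, and both calls held under each of the 18 other settings.

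Fosl1 at -0.76 ± 0.33 (adjusted p = 0.0501) and Junb at -0.87 ± 0.47 (adjusted p = 0.12) missed the threshold in total exons, although all their 16 h libraries were below all their 0 min libraries. Without replicate 3 at 0 min the Fosl1 change was -1.03 and called (0.0167). In total introns, where 19.8% of all genes were lower and 21.4% higher, Fosl1 (-0.79 ± 0.13), Egr1 (-1.36 ± 0.49), Maff (-0.77 ± 0.20) and Arc (-2.14 ± 0.49) were called lower and Atf3 (0.65 ± 0.18) higher. Arc rested there on values of 3, 0 and 2.98 at 16 h, against 18.4, 10.5 and 5.08 at 0 min. The call of Egr1 ended without replicate 1 or 3 at 16 h (0.0595 and 0.0547) or replicate 3 at 0 min (0.202), and that of Maff without replicate 3 at 16 h (0.0519). Junb values counted as intronic had no call, and had one without replicate 2 at 16 h (0.0244) or at 0 min (0.00304).

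**Figure D4:**
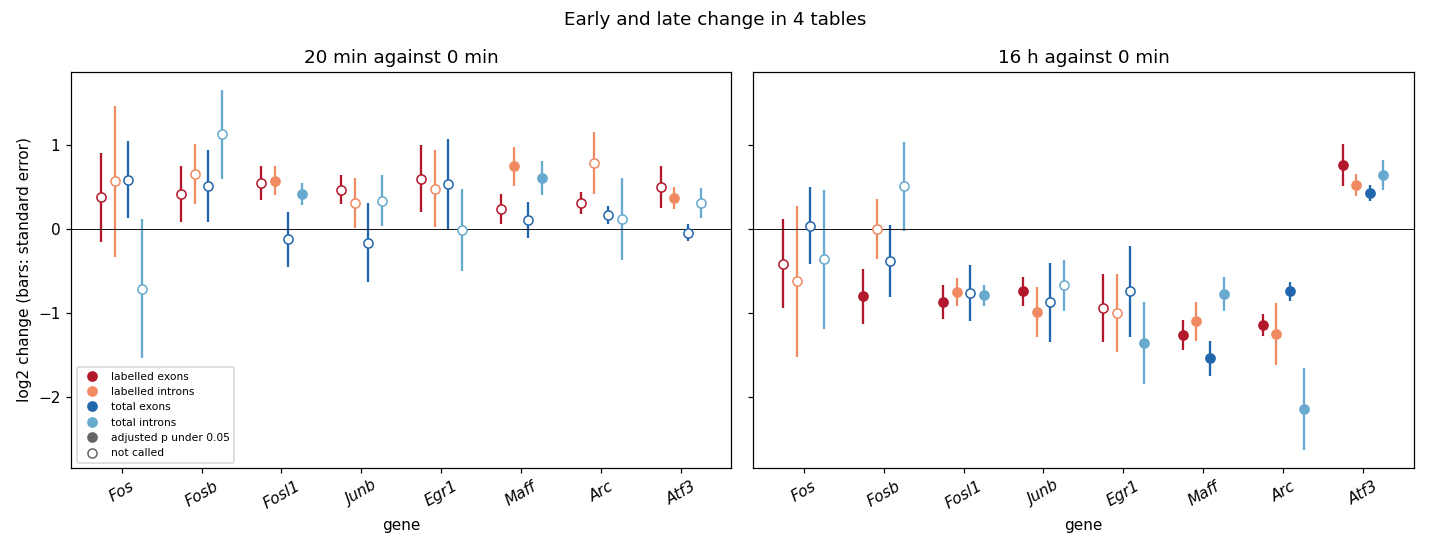
Log2 change (y axis, bars are standard errors) of each gene (x axis) in the 4 tables, for 20 min against 0 min and for 16 h against 0 min, with filled points for an adjusted p under 0.05. At 20 min the filled points are intronic, Fosl1, Maff and Atf3 in labelled and Fosl1 and Maff in total RNA, and at 16 h Atf3 alone is filled above 0, in all 4 tables.

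Set directly against 20 min, the 16 h libraries of labelled RNA had 6 genes called lower in exons, the 5 above and Egr1, where 21.1% of all genes were lower and 22% higher. The median of the 8 was -1.32, against 0.01 for all genes. The genes and these 2 times were chosen with earlier results of these data known, so these counts are descriptions. The changes were -1.22 ± 0.33 for Fosb, -1.42 ± 0.20 for Fosl1, -1.22 ± 0.17 for Junb, -1.54 ± 0.40 for Egr1, -1.51 ± 0.18 for Maff and -1.45 ± 0.13 for Arc. All 6 calls held without any single library of either time. Egr1 was the only one of the 6 whose groups overlapped, through replicate 1 at 20 min. Atf3 had a change of 0.26 ± 0.25 and Fos of -0.80 ± 0.53, and neither passed the test.

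In labelled introns, 5 genes were lower at 16 h than at 20 min (Fosl1, Junb, Egr1, Maff and Arc), where 23.7% of all genes were lower and 23.6% higher. Maff changed by -1.85 ± 0.23 and Arc by -2.05 ± 0.37, and the call of Egr1 (-1.48 ± 0.46) ended without replicate 3 at 20 min (0.0686). Total exons had Egr1, Maff and Arc lower and Atf3 higher (28.7% of all genes lower, 27.2% higher). There Egr1 changed by -1.28 ± 0.54 (adjusted p = 0.0447), which became -0.57 (0.392) without replicate 3 at 20 min and also ended without replicate 2 or 3 at 16 h (0.12 and 0.108). Total introns had Fosl1, Junb, Egr1, Maff and Arc lower (19.3% of all genes lower, 19.2% higher). The calls of Junb (-1.01 ± 0.30) and Egr1 (-1.36 ± 0.49) ended without replicate 3 at 20 min, at 0.0949 and 0.312, and without replicate 1 at 16 h, at 0.0729 and 0.0637. That of Egr1 also ended without replicate 2 or 3 at 16 h (0.0517 and 0.0586).

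Newly made and total RNA were also compared directly, as the labelled change minus the total change in exons. By limma, 0 of the 8 genes passed that test at 20 min, where 0.532% of all genes were higher and 0.0349% lower, or at 16 h, where 0.183% were higher and 0.148% lower. At 20 min Fosl1 changed by 0.55 in labelled and -0.12 in total RNA, a difference of 0.67 ± 0.40 with an unadjusted p of 0.0992, and Atf3 by 0.50 and -0.04, a difference of 0.54 ± 0.28 (unadjusted p = 0.0566), so 0 of 8 were under 0.05 even without adjustment. At 16 h only Arc was, with -1.14 in labelled and -0.74 in total RNA, a difference of -0.40 ± 0.18 (unadjusted p = 0.0313, adjusted p = 0.555).

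Over the 11 time means in labelled exons, Maff and Arc (Pearson r = 0.96), Fosl1 and Maff (0.95), Junb and Maff (0.95) and Fosl1 and Junb (0.95) had the most similar courses. Fos was closest to Egr1 (0.75), and Atf3 was negative with all 7 others (-0.35 to -0.52). These times share their 0 min libraries and the correlations are descriptions over 11 points. Against the median course of the 8 genes, the non-member genes with the most similar course among 10015 candidates were Phlda1 (r = 0.984), a gene induced by growth factors, Fhl3 (0.983), a LIM domain protein gene, the kinase gene Tnk2 (0.982), Spry2 (0.981), a feedback inhibitor of receptor tyrosine kinase signalling, Rps6ka4 (0.980), a kinase downstream of ERK and p38, and Nbl1 (0.976), a BMP antagonist gene. The 8 genes themselves followed that median unequally, with r = 0.991 for Junb, 0.970 for Fosl1, 0.956 for Maff, 0.917 for Arc, 0.861 for Fosb, 0.787 for Egr1, 0.449 for Fos and -0.502 for Atf3. The named non-members changed at 20 min by 0.07 in Tnk2 to 0.35 in Phlda1. That is below the median of the 8 (0.44), though Maff (0.24) and Arc (0.31) were below Phlda1. At 16 h the non-members ran from -0.48 to -0.99. Each of the 8 genes is part of the median course, which raises its own r. The non-members were picked by their r with that course, so their early rise and late fall follow from the choice.

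Other genes of these pathways were taken from lists of known genes. Among 10 tested genes of other AP-1 and small MAF factors, 3 were called higher and 0 lower in labelled exons at 20 min (median 0.05), where 3.32% of all genes were higher and 0.722% lower. Mafk, the sister gene of Maff, had 554 ± 51 at 20 min, against 330.5 ± 44.5 at 0 min (SD, n = 3 each), a rise of 0.75 ± 0.12 (adjusted p = 6.56e-05), and Nfe2l2, which encodes the antioxidant factor NRF2 that pairs with small MAF proteins, rose by 0.35 ± 0.09. At 16 h 3 were higher and 3 lower (median 0.03), against 22.5% and 21.7% of all genes. Jdp2, which encodes a repressor that binds AP-1 sites, changed by -1.32 ± 0.21 and Fosl2, the remaining Fos family gene, by -0.68 ± 0.09, to 4050.0 ± 245 at 16 h, against 6471 ± 400.2 at 0 min. Nfe2l1 fell by 0.17 ± 0.06, while Mafg (0.34 ± 0.09) and Nfe2l2 (0.38 ± 0.09) were higher.

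Of 29 other immediate early genes tested, 6 were called higher and 0 lower at 20 min in labelled exons (median 0.23), against 3.32% and 0.722% of all genes. Sik1, a salt-inducible kinase gene, had 953 ± 104 at 20 min, against 487 ± 21.3 at 0 min, a rise of 0.96 ± 0.09 (adjusted p = 6.15e-10). Hes1, a Notch target, rose by 0.93 ± 0.26 and the nuclear receptor gene Nr4a1 by 0.65 ± 0.16. At 16 h 2 were higher and 15 lower (median -0.56), against 22.5% and 21.7% of all genes. Sik1 was still higher by 0.59 ± 0.09, whereas Ctgf and Cyr61, matricellular protein genes regulated by SRF and YAP, changed by -1.95 ± 0.23 and -1.56 ± 0.17, and Egr3 by -1.78 ± 0.36.

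Among factors that bind immediate early promoters, 1 of 12 tested was called higher at 20 min, Srf, by 0.29 ± 0.09 (adjusted p = 0.0486), where 3.32% of all genes were. At 16 h 1 was higher (Atf1, 0.25 ± 0.08) and 5 lower, against 22.5% and 21.7% of all genes, with Srf at -0.64 ± 0.09, the ternary complex factor gene Elk3 at -0.66 ± 0.07 and the SRF coactivator gene Mkl2 at -0.40 ± 0.08. Of 22 genes of the ERK pathway and MAP kinases, 0 were called at 20 min in labelled exons by limma, and 2 (Sos2 and Rps6ka4) had an unadjusted p under 0.05, as did 15.5% of all genes. At 16 h 4 were higher and 7 lower (median -0.08), against 22.5% and 21.7% of all genes. The receptor genes Fgfr1 and Egfr changed by -1.07 ± 0.07 and -0.74 ± 0.06, Mapk3, which encodes ERK1, by -1.01 ± 0.16, and the kinase genes Rps6ka1 (0.82 ± 0.17), Mapk8 (0.38 ± 0.07) and Mapk9 (0.32 ± 0.08) rose.

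Of 14 AP-1 target genes tested, 2 were called higher at 20 min in labelled exons, where 3.32% of all genes were. They were Vegfa (0.32 ± 0.10, adjusted p = 0.0486) and Hbegf (0.53 ± 0.16, adjusted p = 0.05 after rounding). Both were close to the threshold, and calls of listed genes were not followed under other settings. At 16 h 2 were higher and 11 lower (median -0.64), against 22.5% and 21.7% of all genes. Plau, the urokinase gene, had 385 ± 40 at 16 h, against 1487 ± 19.1 at 0 min, a change of -1.95 ± 0.12. The cytokine gene Lif changed by -1.92 ± 0.16 and the chemokine gene Ccl2 by -1.19 ± 0.13, while Hmox1, which NRF2 also controls, rose by 0.57 ± 0.14.

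Markers of the cells moved with the late fall. In total exons the summed level of 7 of 8 fibroblast markers (Thy1 is not among the genes of the tables) ran from 2940 to 2980 RPKM at 16 h, against 4890 to 5350 RPKM at 0 min. Most of it was Vim (1300 against 2220 RPKM) and S100a4 (1360 against 2270 RPKM). All 7 fell in labelled and in total exons, where 21.7% and 29% of all genes were called lower. Of 13 markers of other cells, 6 were in the tables, and their sum ran from 26.3 to 30 RPKM at 16 h, against 10.7 to 12.5 RPKM at 0 min, most of it Tubb3, a neural tubulin gene, with 23.7 against 7.31 RPKM. Map2, the list's other neural marker, was lower, with 1.06 RPKM at 16 h, against 2.03 RPKM at 0 min, and the smooth muscle marker Myh11 stood at 0.024 against 0.0219 RPKM. The leukocyte marker Ptprc (0.0746 RPKM at 16 h, against 0.0438 RPKM at 0 min) and the endothelial marker Pecam1 (0.122 against 0.047 RPKM) were close to 0 at both times, while the macrophage marker Cd68 stood at 3.17 against 2.25 RPKM. Sums at 20 min, of 4780 to 5000 RPKM for fibroblast markers and 11.9 to 12.8 RPKM for other cells, overlapped the 0 min ranges. The fibroblast sums reached below their 0 min range and those of other cells above theirs. In labelled exons at 20 min, 0 of the 6 other-cell markers were called by limma, where 3.32% of all genes were higher and 0.722% lower. There 3 (Ptprc, Cd68 and Pecam1) had an unadjusted p under 0.05, as did 15.5% of all genes. Cd68 stood at 2.91 RPKM in total exons at 20 min, against 2.25 RPKM at 0 min. Ptprc (0.0377 against 0.0438 RPKM) and Pecam1 (0.0405 against 0.047 RPKM) were lower in total exons at 20 min. The part of these shifts in the early and late changes was not tested.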

How the data were processed

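How reads were counted is not given in the sources used here, and the submitters' processing notes name TopHat2 2.0.8, TopHat and mm9 for the 66 libraries of labelled and total RNA. The count tables the authors deposited hold whole numbers that had been rescaled, here handled as a score and not as read counts. The deposited RPKM values, per the file headers, are proportional to them gene by gene (largest deviation 0.82%). Sample titles gave the groups and the replicate numbers.

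Libraries of a table were scaled to each other by the trimmed mean of M-values (30% of log ratios and 5% of levels trimmed), with factors from 0.9135 to 1.098. The filter was a value of 10 or more in 3 or more libraries, which all 8 genes passed. With limma 3.58.1 (R 4.3.3, variance trend), a mean per time over all 33 libraries was fitted to the log2 of scaled value plus 1. Two-sided p-values had Benjamini-Hochberg adjustment over all genes tested. Changes of low values are understated on this scale. The scripts were tested on simulated data. The genes, lists and comparisons were chosen with earlier results of these data known. From each list, up to 3 called genes with the largest rise and fall at 20 min and 16 h in labelled exons are named if their mean was at least 50 in the higher group and groups did not overlap. Likeness of course was Pearson r over 11 time means among genes with a mean of at least 50. Other scalings, pseudocounts, filters, variance models, fits to 2 times, a replicate block and fits without each library were tried.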

Additional observations from a re-analysis of the deposited data

How the results depend on the processing

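Of 400 tested changes of the 8 genes, 89 were called, 39 of them stayed called under every other setting, and 0 called changes turned sign. The 400 were 10 times against 0 min, 16 h against 20 min and 4 h against 1.5 h in 4 tables, and the labelled minus total changes. The comparison of 4 h with 1.5 h was picked from these values, and its calls are among the 89. For it, 299 of 11488 genes were higher and 384 lower in labelled exons, and 664 and 1029 of 11506 in labelled introns. The share of all genes called was not pooled over these comparisons, so 89 of 400 only describes the calls and sets the 8 genes apart from no others. With a fit to the libraries of the 2 times alone, labelled exons had 2 genes higher in place of 0 at 20 min, 3 at 30 min and 4 at 1 h, and total exons had 5 lower in place of 2 at 16 h and 5 in place of 3 for 16 h against 20 min. The 2 higher calls in total introns at 20 min became 1 with scaling by library sums, 1 with no further scaling, 1 with RPKM plus 0.1 and 0 without a trend of the variance, and RPKM plus 0.1 gave 1 higher in place of 0 for total introns at 16 h against 20 min. The cause was not tested. For the fits to 2 times, the share of all genes called was not computed. More calls among the 8 can there not be told apart from more calls over all genes.

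Leaving out single libraries, or a replicate number at all times (chosen after the data were seen), moved the counts as follows. At 20 min against 0 min, genes higher ran from 0 to 1 in labelled exons, 0 to 3 in labelled introns and 0 to 0 in total introns. At 16 h against 0 min, genes higher ran from 0 to 1 in labelled exons and in total introns, and genes lower from 2 to 5 in labelled introns, 2 to 4 in total exons and 2 to 5 in total introns. At 16 h against 20 min, genes higher ran from 0 to 1 in labelled introns, and genes lower from 2 to 6 in total exons and 3 to 5 in total introns. Without replicate number 3 at all times, labelled exons of Egr1 and Fosb were no longer called at 16 h against 20 min (0.265 and 0.114). Where a time keeps 2 libraries, they are taken to vary like the other times. The share of all genes called was not computed for the fits without a library or a replicate number either.

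Replicate numbers do not pair the libraries by the labels, and in no comparison did every same-numbered pair correlate above 0.1. Each library's deviations from its time mean were also correlated with those of all libraries at other times, averaged per replicate number. Of the 3 averages, that of its own number was highest in 18, 18, 27 and 27 of 33 libraries (labelled exons, labelled introns, total exons, total introns). Libraries of the same number thus tended to deviate together, more often in total RNA. With the replicate block, genes lower at 16 h against 0 min were 6 in place of 5 in labelled exons, 5 in place of 4 in labelled introns and 3 in place of 2 in total exons, and calls at 20 min stayed at 0, 3, 0 and 2 in number. The block also called 2 genes in place of 0 at 30 min in labelled exons (Fosl1 at 0.038 and Junb at 0.0382) and 3 in place of 0 at 1 h (Fosl1 at 0.0312, Junb at 0.0317 and Arc at 0.0463), and it called Egr1 at 4 h (0.0212). Calls over all genes rose with the block too. In labelled exons, genes higher were 1010 in place of 924 at 30 min, 1702 in place of 1554 at 1 h and 2385 in place of 2245 at 4 h. Genes lower at 16 h were 2587 in place of 2495.

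Over all genes, no further scaling gave 238 higher and 152 lower in labelled exons at 20 min, and RPKM plus 0.1 gave 241 and 147, in place of 381 and 83. With scaling by library sums, labelled introns had 1579 and 1921 in place of 1920 and 1535 at 20 min, 4115 and 1914 in place of 2883 and 2646 at 16 h (median 0.13) and 4510 and 1797 in place of 2713 and 2726 for 16 h against 20 min (median 0.16). Total introns had 3028 and 1762 in place of 2202 and 2217 for 16 h against 20 min (median 0.11). Total exons at 20 min had 2 higher with RPKM plus 0.1 and 3 with at least 50 in at least 3 libraries, in place of 5. Read depth is unknown, so the precision of low values such as those of Fos and Arc introns cannot be stated.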
